A study of Mus musculus with 19 samples.

Results

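The 9 genes described here belong to vitamin A handling and were followed in mouse liver: Rbp4, Retsat, Rdh10, Rdh11, Dhrs3, Aldh1a1, Aldh1a7, Cyp26a1 and Rarb. They were taken by gene symbol from the 4 deposited comparison tables, which together list 24192 genes, and all 9 were found, each once. RNA was sequenced from whole livers of 19 mice in 4 groups that cross a diet with a genotype. HF-KO mice (n = 6) were labelled as hepatocyte-specific PPARγ knockouts and ate the HF diet, which was high in fructose, cholesterol and fat. HF-C mice (n = 5) were the controls on the HF diet. LF-KO mice (n = 4) were labelled as knockouts and LF-C mice (n = 4) as controls, and both ate a low fat diet (LF). PPARγ is a nuclear receptor that drives genes of fat storage. Per the labels, the knockout was induced before 24 weeks of the HF diet, the livers on the HF diet had steatohepatitis (NASH, a fatty liver with inflammation) and those on the LF diet were healthy. The labels used here do not give the means of the knockout, the part of the gene removed or the alleles of the controls.

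Vitamin A reaches the liver as retinyl esters, is stored in stellate cells, and leaves hepatocytes as retinol bound to the carrier RBP4. Inside cells retinol is oxidised to retinal and then to retinoic acid, the form that binds the nuclear receptors of the RAR family, while reductases return retinal to retinol. CYP26 enzymes break retinoic acid down, and both Cyp26a1 and Rarb are classic genes switched on by retinoic acid through its receptors.

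Levels are CPM, counts relative to library size, scaled by TMM factors, a correction for the make-up of each library, and fold changes are log2 values ± SE. Counted fragments ranged from 11437875 to 20711869 per library. The library LF-C-2 stood apart, with a TMM factor of 0.611 where the others ranged from 0.858 to 1.22. Mitochondrial genes took 1.64% of its counts, against 4.02% to 5.92% elsewhere, and its 10 most abundant genes took 25.5%, against 14.6% to 20.2%. It had the highest total but the fewest genes detected, 16793, where the others had 17217 to 19616. Over genes kept by the count filter, each library's deviation from its group's mean log2 CPM was correlated with gene length. Spearman's rho was lowest in LF-C-2 (-0.468), with HF-KO-2 at -0.427, and highest in LF-C-3 (0.447). For some genes, results against LF-C are therefore also given without LF-C-2. Pparg, the targeted gene, was not lower in the livers labelled as knockouts. It had a lowest, median and highest level of 47.1, 56.4 and 107 CPM in HF-KO livers, against 27.5, 25.6, 20.6, 31.4 and 21.6 CPM in HF-C livers, with no overlap. The difference of log2(CPM + 1) was 1.34 (exact permutation test, two-sided, p = 0.00433, the smallest that these group sizes allow). On the LF diet Pparg had 35.3, 41.1, 12.5 and 11.6 CPM in LF-KO livers, against 19, 8.07, 5.92 and 12.6 CPM in LF-C livers (difference 0.98, exact permutation p = 0.2, smallest possible 0.0286). Gene counts do not show which part of Pparg was read, so the genotype is used here as labelled. In whole tissue, fewer cells of a type and less RNA per cell cannot be told apart.

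Per kilobase of listed gene length, the levels of the 9 genes spanned a wide range. Rbp4, the plasma carrier of retinol, came first at 2802 CPM per kb (mean of the 4 group means), followed by the retinal dehydrogenase gene Aldh1a1 at 699. Retsat, which saturates a bond of retinol, had 158, and Aldh1a7, a rodent paralog of Aldh1a1, had 117 CPM per kb. These neighbours were not separated, since Retsat exceeded Aldh1a7 in 10 of 19 libraries. Dhrs3, a retinal reductase, had 69.2 CPM per kb. Rdh11, another retinal reductase, had 12.3 and Rdh10, the retinol dehydrogenase, had 9.08 CPM per kb, with Rdh11 above Rdh10 in 14 of 19 libraries. Cyp26a1, the retinoic acid hydroxylase, had 5.61 and Rarb, a retinoic acid receptor, had 1.82 CPM per kb. Counts behind the lowest genes were small, from 38 to 572 fragments for Cyp26a1 and from 38 to 166 for Rarb, against 36365 to 91725 for Rbp4. Libraries were made without strand information. In GENCODE M21 Rarb shares 1793 exon bases with Top2b and 227 with Gm48162, and Retsat shares 650 with Gm45053, all on the opposite strand. By the coordinates listed with the counts, 0 other listed genes overlapped the span of Rarb or of Retsat.

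The promoters of Rarb and Cyp26a1 are shown because they held the element through which retinoic acid receptors are known to act, a direct repeat of a hexamer. Any of the hexamers AGGTCA or AGTTCA or GGGTCA or GGTTCA was searched on both strands as a direct repeat spaced by 5, 2 or 1 bases, from 250 bases before to 50 after each RefSeq start (build GRCm38.p6). Of the 9 genes 8 had a promoter entry, and Rarb and Cyp26a1 were the 2 with a match, each a repeat spaced by 5 bases and with no overlap of other matches. That repeat was in 32 of 32851 promoters (0.0974%). In the Rarb promoter, chr14:16575427-16575726 on the minus strand, the match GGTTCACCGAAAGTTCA began at -53 from the start. In the Cyp26a1 promoter, chr19:37697558-37697857 on the plus strand, the match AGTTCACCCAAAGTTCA lay on the opposite strand at -32. Capitals mark the matches, and a match of letters is a description, not a shown binding site.
Rarb: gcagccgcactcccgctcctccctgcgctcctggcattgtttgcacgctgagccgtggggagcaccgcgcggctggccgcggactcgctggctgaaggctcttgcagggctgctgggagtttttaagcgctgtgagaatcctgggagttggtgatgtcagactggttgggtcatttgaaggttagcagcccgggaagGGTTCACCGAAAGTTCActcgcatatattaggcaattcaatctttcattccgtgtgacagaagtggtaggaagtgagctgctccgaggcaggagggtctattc
Cyp26a1: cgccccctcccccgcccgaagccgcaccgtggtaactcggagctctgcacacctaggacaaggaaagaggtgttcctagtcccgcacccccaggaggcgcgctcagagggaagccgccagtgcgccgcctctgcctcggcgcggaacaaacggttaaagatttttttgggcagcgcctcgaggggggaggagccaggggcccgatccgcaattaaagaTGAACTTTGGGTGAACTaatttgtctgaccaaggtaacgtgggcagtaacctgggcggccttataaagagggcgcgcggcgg

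**Figure D1:**
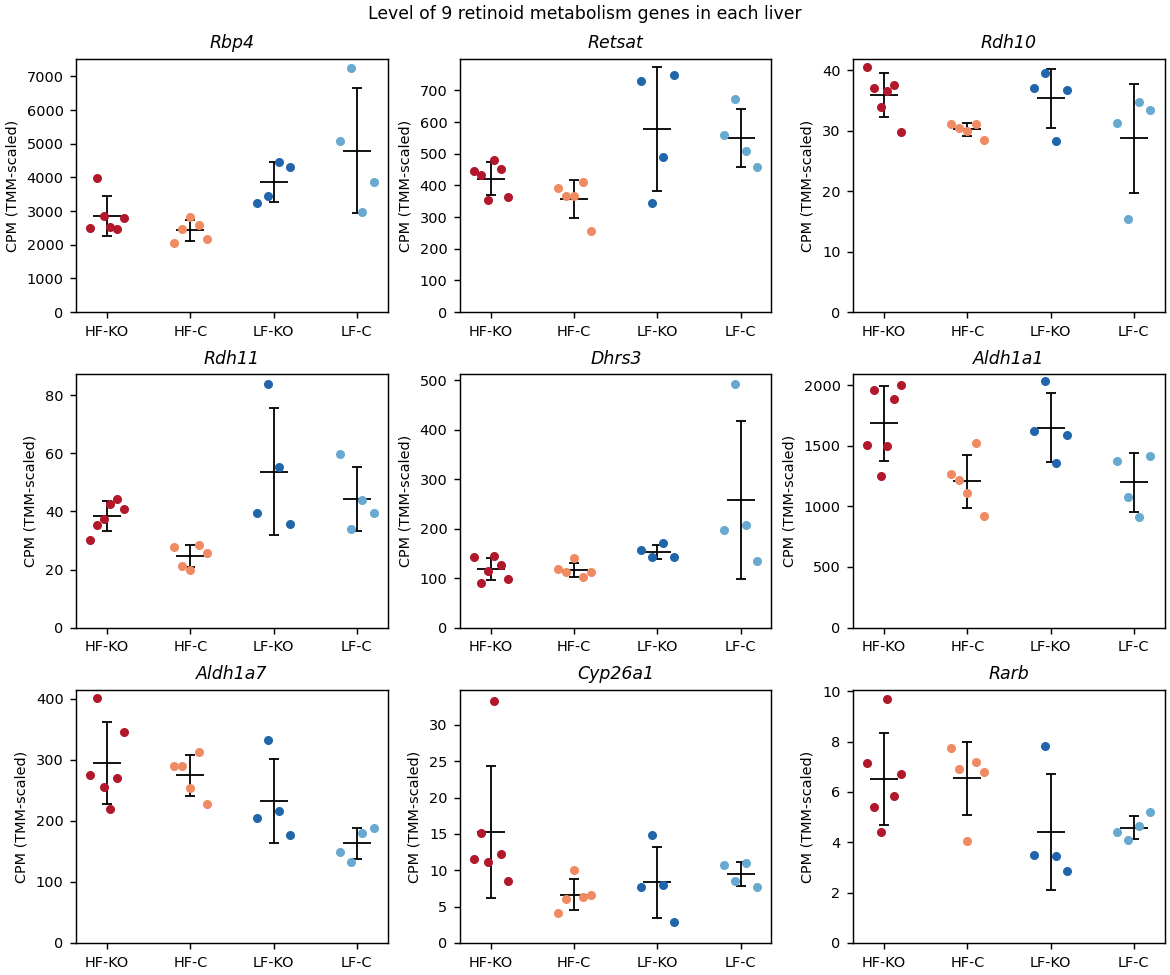
Level of each gene (y axis, TMM-scaled CPM from 0) in each liver, with groups on the x axis. Points are livers and bars are the mean ± SD of a group (n = 6 HF-KO, 5 HF-C, 4 LF-KO and 4 LF-C). Rdh11 lies lower in the HF-C livers (19.9 to 28.6 CPM) than in every HF-KO (30.1 to 44.2) and LF-C liver (33.9 to 59.8).

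The first comparison, HF-C against LF-C, asks what the steatohepatitis diet changed in control livers. Of the 9 genes 5 passed edgeR's quasi-likelihood test at a Benjamini-Hochberg adjusted p under 0.05, 1 of them higher (Aldh1a7) and 4 lower (Rbp4, Retsat, Rdh11 and Dhrs3). Among all 13825 genes tested 17.8% passed, 10.6% higher and 7.15% lower. The median log2 fold change was -0.52 over the 9 genes and 0.02 over all genes. In 4 of the 9 the groups did not overlap, as in 21.5% of all genes.

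The carrier Rbp4 had 2052, 2474, 2839, 2589.6 and 2176 CPM in HF-C livers, against 5082, 7253, 2959 and 3877 CPM in LF-C livers. Every HF-C liver was below every LF-C liver, and the log2 fold change was -0.98 ± 0.25 (edgeR adjusted p = 0.0225). Without LF-C-2 it was -0.75 (edgeR adjusted p = 0.0148). Rbp4 had the shortest listed length of the members, 1243 bases. Its LF-C levels were highest in LF-C-2 and lowest in LF-C-3, the libraries with the lowest and highest correlation with gene length. The part of gene length in its values was not tested. Retsat had 391, 367, 367, 411 and 255 CPM in HF-C livers, against 561, 673, 509 and 459 CPM in LF-C livers. These groups did not overlap either, and Retsat fell by 0.62 ± 0.18 on the log2 scale (edgeR adjusted p = 0.0405). The Rbp4 call was lost without HF-C-1, HF-C-2, HF-C-4, HF-C-5 or LF-C-1 (adjusted p 0.0504 to 0.0652). The Retsat call was lost without LF-C-1 or any 1 HF-C liver (0.0647 to 0.0932). Leaving out LF-C-1 or any 1 HF-C liver took the calls over all genes from 2458 to between 1451 and 1853.

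Among the reductases, Rdh11 had 27.8, 21.2, 19.9, 28.6 and 25.7 CPM in HF-C livers, against 59.8, 33.9, 43.8 and 39.6 CPM in LF-C livers. The groups were separate, the log2 fold change was -0.84 ± 0.20 (edgeR adjusted p = 0.0151), and the call held without any 1 library (-0.98 to -0.67). Dhrs3 had 119, 112, 140.1, 102 and 113 CPM in HF-C livers, against 198, 492, 208 and 135 CPM in LF-C livers. The groups overlapped through HF-C-3 and LF-C-4, and LF-C-2 was far above the rest. Its log2 fold change was -1.14 ± 0.32 (edgeR adjusted p = 0.0343) and moved to -0.65 (adjusted p = 0.0121) without LF-C-2. The call was lost when any 1 HF-C liver was left out (adjusted p 0.0561 to 0.0867), with the fall in calls over all genes given above.

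Rdh10, the dehydrogenase that works in the other direction, averaged 30.2 ± 1.10 CPM in HF-C livers and 28.8 ± 9.01 CPM in LF-C livers (SD, n = 5 and 4). It did not pass the test (log2 0.07 ± 0.22, edgeR adjusted p = 0.852), and its sign turned without LF-C-2 (-0.17), where it had 15.4 CPM.

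The aldehyde dehydrogenase paralogs differed in their values. Aldh1a7 had 289, 289, 254, 312 and 227 CPM in HF-C livers, against 149.5, 133, 180.3 and 188 CPM in LF-C livers. All HF-C livers were above all LF-C livers, and the gene rose by 0.75 ± 0.17 on the log2 scale (edgeR adjusted p = 0.0118), a call kept without any 1 library (0.64 to 0.83). Aldh1a1 averaged 1208 ± 218 CPM in HF-C livers and 1197 ± 240 CPM in LF-C livers (SD, n = 5 and 4), with a log2 fold change of 0.01 ± 0.20 (edgeR adjusted p = 0.97). The coding sequences of this pair are 91.6% identical over 1506 bases, and 151 of 2017 stretches of 50 bases of the Aldh1a7 transcript also occur in Aldh1a1, against 0 of 1917 stretches of 150 bases, the read length. The treatment of shared reads in the counting is not given here, so the split between the pair is uncertain.

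Of the members on the side of retinoic acid, neither Cyp26a1 nor Rarb passed the test. Cyp26a1 averaged 6.61 ± 2.13 CPM in HF-C livers and 9.50 ± 1.62 CPM in LF-C livers (log2 -0.52 ± 0.25, edgeR adjusted p = 0.171). Rarb averaged 6.53 ± 1.44 CPM in HF-C livers and 4.58 ± 0.46 CPM in LF-C livers (log2 0.51 ± 0.22, edgeR adjusted p = 0.129), and it was called without HF-C-3 (0.64, adjusted p = 0.0451).

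Cell type markers moved in the same comparison. Of 8 hepatocyte markers 5 were lower and 0 higher (median log2 fold change -1.06). Their summed levels were 44237 to 57185 CPM in HF-C livers and 84670.1 to 182141 CPM in LF-C livers. Alb alone had 26750.5 to 37445 CPM in HF-C livers and 51060 to 119183 CPM in LF-C livers. Of 10 macrophage markers 6 were higher and 1 lower (457 to 642 CPM summed in HF-C livers, 213 to 751 in LF-C livers). Of 6 myofibroblast markers 4 were higher (311 to 552 CPM in HF-C livers, 48.3 to 161 in LF-C livers). Summed stellate cell markers were 580.4 to 816 CPM in HF-C livers and 560.4 to 795 CPM in LF-C livers, and 3 of 12 were higher and 1 lower. Of 5 cholangiocyte markers 3 were higher (155 to 509 CPM in HF-C livers, 33.4 to 121 in LF-C livers), and of 8 sinusoidal endothelial markers 2 were lower (250.4 to 451 CPM in HF-C livers, 358 to 539 in LF-C livers). Adipocyte markers summed to at most 0.0977 CPM in HF-C livers and 9.17 CPM in LF-C livers. Of 3 blood markers 2 were lower (median log2 fold change -1.88), and their sums did not overlap (131 to 189.5 CPM in HF-C livers, 233 to 1444 in LF-C livers). The part of these shifts in the retinoid genes was not tested. The scaling mattered here: with library size alone, the median of all genes moved by 0.43 and 2 of the 9 genes were called, Aldh1a7 and Rarb, with Rbp4 at -0.48, Retsat at -0.17, Rdh11 at -0.44 and Dhrs3 at -0.59. Limma-voom did not call Dhrs3 (-0.97, adjusted p = 0.0557), and without the filter on low counts edgeR did not call Retsat (-0.59, adjusted p = 0.0702).

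**Figure D2:**
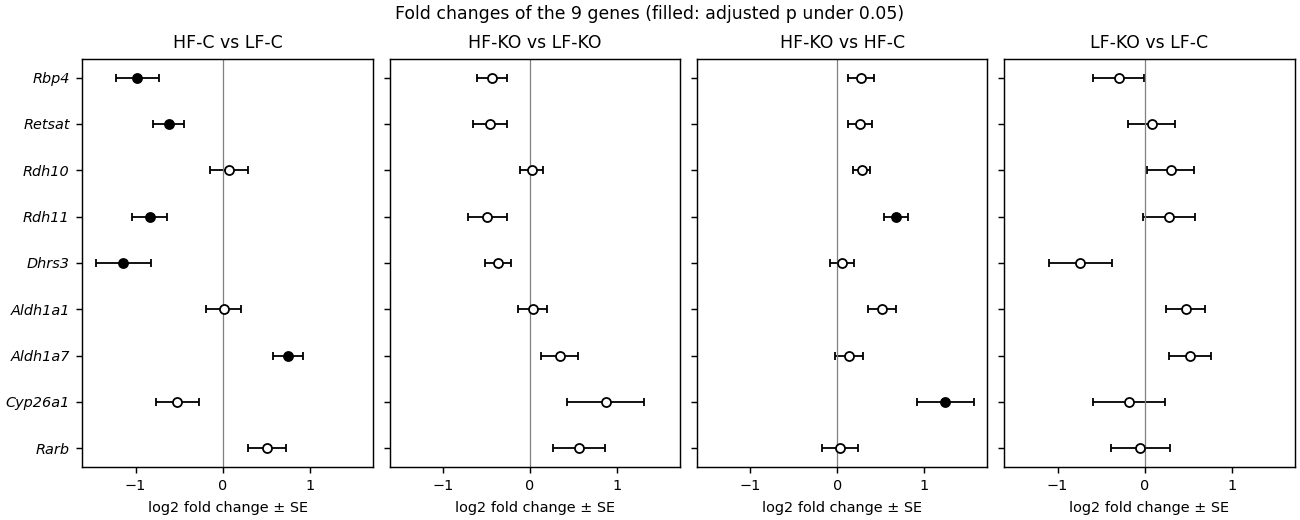
log2 fold change ± SE (x axis) of each of the 9 genes (y axis) in the 4 comparisons, filled where the adjusted p was under 0.05. There are 5 filled points in HF-C vs LF-C, 2 in HF-KO vs HF-C and 0 in the other 2 panels.

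The rest of the pathway was described by a list of 52 other genes, of which 43 could be tested. In HF-C against LF-C livers 5 were higher and 9 lower, where 10.6% of all genes were higher and 7.15% lower. The median log2 fold change of the list was -0.44, against 0.02 over all genes. Lpl, the lipase that frees fatty acids and retinol from circulating lipoproteins, averaged 229 ± 53.5 CPM in HF-C livers and 28.8 ± 25.3 CPM in LF-C livers (log2 2.99 ± 0.49, edgeR adjusted p = 0.00276). Its log2 fold change was 3.77 without LF-C-2. Of the 13 retinol and retinal oxidoreductases tested 1 was higher and 4 lower. Adh7, an alcohol dehydrogenase active on retinol, averaged 18.2 ± 2.71 CPM in HF-C livers and 47.2 ± 14.5 CPM in LF-C livers (log2 -1.38 ± 0.23, edgeR adjusted p = 0.00293). Its relative Adh5 fell by 0.88 ± 0.18 on the log2 scale (edgeR adjusted p = 0.00852). Aldh8a1, an aldehyde dehydrogenase listed here under retinal oxidation, averaged 231 ± 26.9 CPM in HF-C livers and 385 ± 48.6 CPM in LF-C livers (log2 -0.74 ± 0.15, edgeR adjusted p = 0.00871). With library size alone Aldh8a1 was at -0.32 and not called (edgeR adjusted p = 0.211). Adh5 was then at -0.41 and still called (edgeR adjusted p = 0.0478). Of 3 genes listed as retinoic acid responsive 2 were higher, Tgm2 (log2 0.91 ± 0.27, edgeR adjusted p = 0.039) and Rarres1 (0.90 ± 0.26, 0.0343). Cyp26b1 was lower (-1.60 ± 0.50, edgeR adjusted p = 0.0495), as was 1 of 5 receptors, Rxra (-0.82 ± 0.19, 0.0141).

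HF-KO against LF-KO asks the same of the diet in livers labelled as knockouts. Of the 9 genes 0 passed edgeR's test, against 4.68% of all genes. At an unadjusted p under 0.05 there were 4 (Rbp4, Retsat, Rdh11 and Dhrs3), where 19.7% of all genes did, and DESeq2 and limma-voom called 0. The groups overlapped for all 9 genes, and 7.5% of all genes had no overlap. Rbp4 averaged 2856 ± 580 CPM in HF-KO livers and 3859 ± 600 CPM in LF-KO livers (log2 -0.44 ± 0.17, edgeR adjusted p = 0.175). Retsat had a log2 fold change of -0.46 ± 0.20 (edgeR adjusted p = 0.231) and Dhrs3 of -0.37 ± 0.15 (0.205). For Rdh11 the mean was 38.4 ± 5.22 CPM in HF-KO livers and 53.7 ± 21.9 CPM in LF-KO livers (log2 -0.49 ± 0.22, edgeR adjusted p = 0.236), with LF-KO-2 at 84.0 CPM. Aldh1a7, the gene higher in HF-C livers, had a log2 fold change of 0.34 ± 0.21 here (edgeR adjusted p = 0.422). Cyp26a1 (log2 0.87 ± 0.44, edgeR adjusted p = 0.299), Rarb (0.56 ± 0.30, 0.339), Rdh10 (0.02 ± 0.13, 0.967) and Aldh1a1 (0.03 ± 0.17, 0.962) did not pass either. Leaving out 1 library gave 3 calls: Rbp4 without HF-KO-2 (-0.56, edgeR adjusted p = 0.0222), and Retsat (-0.64, 0.0488) and Rarb (1.00, 0.0453) without LF-KO-2. Of the pathway list 2 were higher and 2 lower. Lpl averaged 80.5 ± 13.4 CPM in HF-KO livers and 26.4 ± 11.6 CPM in LF-KO livers (log2 1.60 ± 0.25, edgeR adjusted p = 0.0126). Lrat, which esterifies retinol for storage and marks stellate cells, averaged 48.0 ± 7.13 CPM in HF-KO livers and 26.2 ± 9.38 CPM in LF-KO livers (log2 0.87 ± 0.22, edgeR adjusted p = 0.0413). Ces1d, a carboxylesterase, fell by 0.94 ± 0.23 and Adh7 fell by 0.65 ± 0.17 on the log2 scale (edgeR adjusted p = 0.0386 and 0.0448). These calls were fragile. Lpl lost it when LF-KO-3 (edgeR adjusted p = 0.061) or LF-KO-4 (0.0657) was left out, and Ces1d and Lrat kept it only without HF-KO-2 or LF-KO-2 (up to 0.149 and 0.147 without another library). Adh7 kept it only without HF-KO-2, HF-KO-5 or LF-KO-1 (up to 0.173 otherwise). The calls over all genes moved too, from 637 with all libraries to 0 without LF-KO-3 and 4 without LF-KO-4. They were 827 without LF-KO-2 and 1214 without HF-KO-2. The log2 fold change of Lpl was 1.44 without LF-KO-3 and 1.49 without LF-KO-4. Limma-voom called neither Ces1d (adjusted p = 0.061) nor Adh7 (0.0589). With library size alone edgeR called neither Ces1d (-0.76, adjusted p = 0.0556) nor Adh7 (-0.45, 0.133), and a fit of all 19 libraries did not call Adh7 (0.076).

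Cell type markers also moved between HF-KO and LF-KO livers. Of 12 stellate cell markers, a list that holds Lrat, 2 were higher and 0 lower, with sums that did not overlap (617 to 718 CPM in HF-KO livers, 445 to 557 in LF-KO livers). Of 10 macrophage markers 7 were higher (332 to 456 CPM in HF-KO livers, 163 to 238 in LF-KO livers). Hepatocyte markers were lower in 3 of 8 (58415 to 69548 CPM in HF-KO livers, 89755 to 118351 in LF-KO livers). Their median log2 fold change was -0.56, and Alb alone had 38060 to 46988 CPM in HF-KO livers and 62132 to 82781 CPM in LF-KO livers. Myofibroblast markers were higher in 2 of 6, sinusoidal endothelial markers in 1 of 8, cholangiocyte markers in 1 of 5 and blood markers in 0 of 3. Their part in the values of Lrat and the other retinoid genes was not tested.

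HF-KO against HF-C asks what the labelled knockout changed on the HF diet. Rdh11 and Cyp26a1 were higher in HF-KO livers and 0 of the 9 genes were lower, where 9.77% of all 13915 genes tested were called, 4.35% higher and 5.43% lower. The median log2 fold change was 0.27 over the 9 genes and 0.02 over all genes. Rdh11 alone did not overlap between the groups, as in 9.75% of all genes. This comparison shares the HF-C livers with the diet comparison in control livers, so a low HF-C level enters both.

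Rdh11 had 30.1, 35.3, 37.3, 42.5, 44.2 and 40.7 CPM in HF-KO livers, against the 19.9 to 28.6 CPM of the HF-C livers given above. The lowest HF-KO liver was above the highest HF-C liver, and the log2 fold change was 0.67 ± 0.14 (edgeR adjusted p = 0.01), called without any 1 library (0.60 to 0.73). A fit of all 19 libraries together gave 0.64 with an adjusted p of 0.0898.

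Cyp26a1 had 11.5, 15.1, 11.1, 33.3, 12.3 and 8.48 CPM in HF-KO livers, against 4.12, 6.00, 10, 6.36 and 6.55 CPM in HF-C livers. HF-KO-4 stood far above the rest, and HF-KO-6 lay below HF-C-3, so the groups overlapped. The log2 fold change was 1.24 ± 0.33 (edgeR adjusted p = 0.0332) and 0.85 to 1.44 with 1 library left out. The call was lost when any HF-C liver other than HF-C-3 was left out (adjusted p 0.0767 to 0.0814) and, at 1.12, with library size alone (0.0587). Leaving out 1 of those HF-C livers took the calls over all genes from 1360 to between 704 and 846, with Cyp26a1 at 1.11 to 1.23. Rarb, whose promoter also held the repeat, averaged 6.52 ± 1.82 CPM in HF-KO livers and 6.53 ± 1.44 CPM in HF-C livers (log2 0.03 ± 0.21, edgeR adjusted p = 0.93).

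Aldh1a1 had a lowest, median and highest level of 1253, 1698 and 2001 CPM in HF-KO livers, against 1268, 1219, 1113, 1519 and 923 CPM in HF-C livers. It was higher than the HF-C mean in 6 of 6 HF-KO livers, but did not pass edgeR's test (log2 0.51 ± 0.16, adjusted p = 0.0629). Rdh10 averaged 35.9 ± 3.67 CPM in HF-KO livers and 30.2 ± 1.10 CPM in HF-C livers (log2 0.28 ± 0.10, edgeR adjusted p = 0.0879). The authors' deposited table called both, with an adjusted p of 0.0257 for Aldh1a1 and 0.0422 for Rdh10, as did DESeq2 here. Rbp4 (log2 0.27 ± 0.15, edgeR adjusted p = 0.263), Retsat (0.26 ± 0.14, 0.217), Aldh1a7 (0.13 ± 0.16, 0.599) and Dhrs3 (0.05 ± 0.14, 0.832) did not pass.

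Hepatocyte markers summed to 58415 to 69548 CPM in HF-KO livers and 44237 to 57185 CPM in HF-C livers. Of these 8 markers 2 were higher and 0 lower (median log2 fold change 0.28). Alb alone had 38060 to 46988 CPM in HF-KO livers and 26750.5 to 37445 CPM in HF-C livers. The levels of the other hepatocyte markers overlapped between the groups. Macrophage markers were lower in 5 of 10 (332 to 456 CPM in HF-KO livers, 457 to 642 in HF-C livers) and myofibroblast markers in 4 of 6 (72.6 to 232 CPM in HF-KO livers, 311 to 552 in HF-C livers). Cholangiocyte markers were lower in 4 of 5 (87.5 to 188 CPM in HF-KO livers, 155 to 509 in HF-C livers), and blood markers were higher in 2 of 3 (171 to 383 CPM in HF-KO livers, 131 to 189.5 in HF-C livers). Stellate cell markers were higher in 2 and lower in 1 of 12, and sinusoidal endothelial markers passed in 0 of 8. Their part in the changes of Rdh11, Cyp26a1 and the pathway genes given below was not tested.

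**Figure D3:**
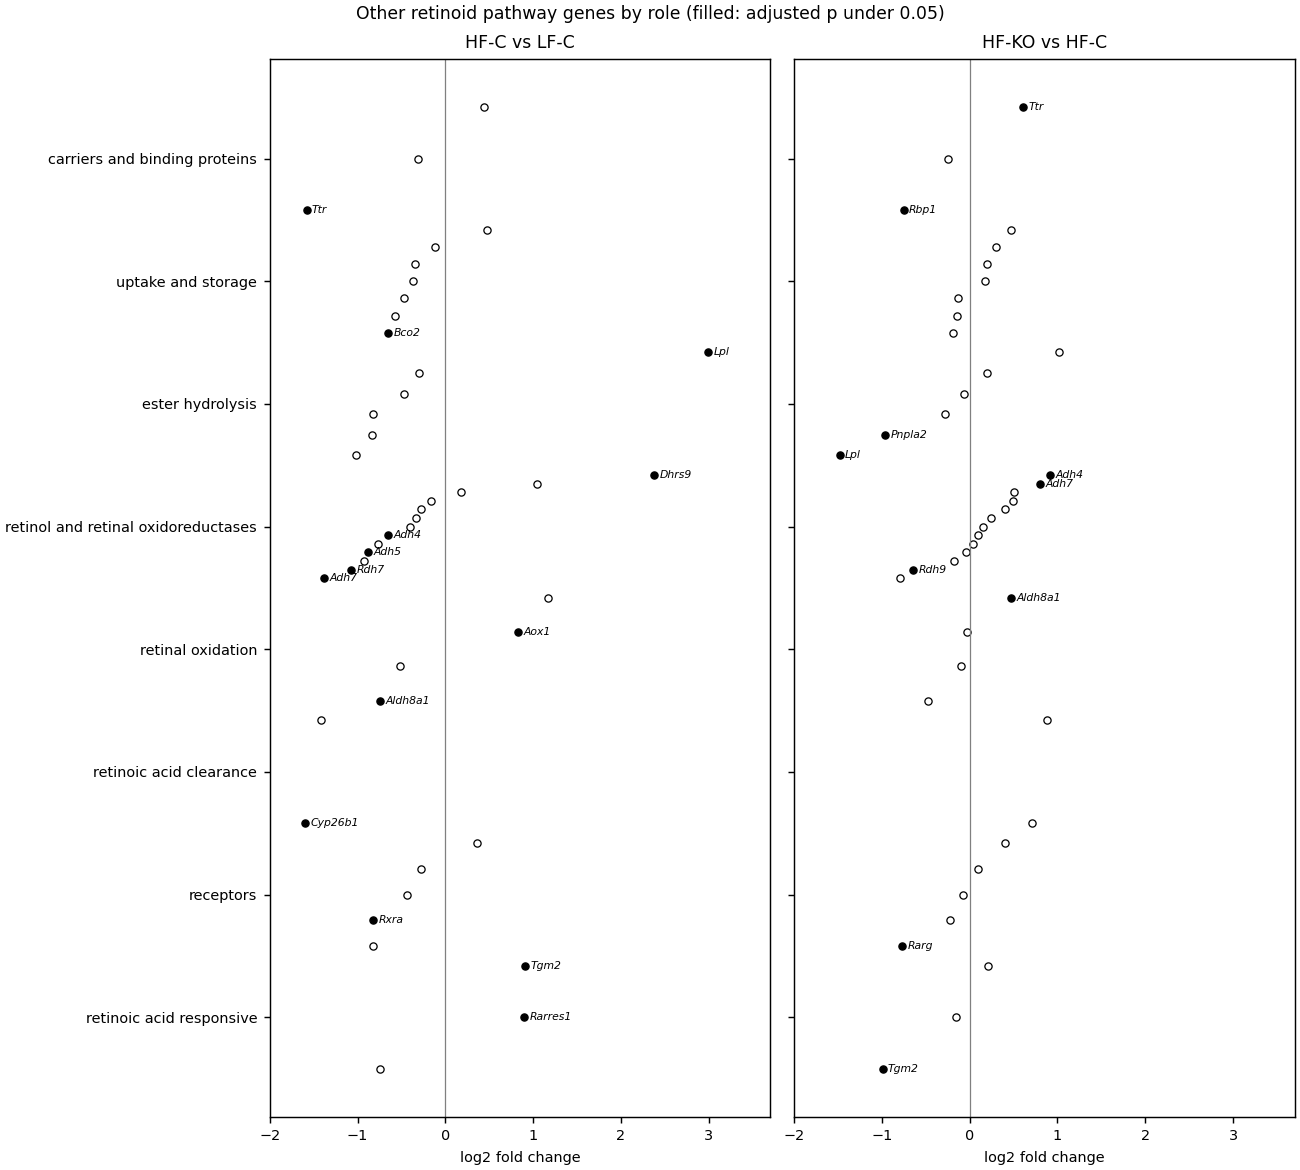
log2 fold change (x axis) of the tested genes of the pathway list, in bands by role (y axis), in HF-C vs LF-C and HF-KO vs HF-C. Filled, named points passed an adjusted p of 0.05: 5 higher and 9 lower in HF-C livers, and 4 higher and 6 lower in HF-KO livers.

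Of the 43 other pathway genes tested, 4 were higher and 6 lower in HF-KO livers, where 4.35% of all genes were higher and 5.43% lower. The median log2 fold change of the list was 0.04, against 0.02 over all genes. Lpl, a known PPARγ target, averaged 80.5 ± 13.4 CPM in HF-KO livers and 229 ± 53.5 CPM in HF-C livers. Its log2 fold change was -1.48 ± 0.16 (edgeR adjusted p = 0.000144), and -0.12 ± 0.53 (0.94) in LF-KO against LF-C livers. Pnpla2, a lipase of lipid droplets, fell by 0.96 ± 0.20 on the log2 scale (edgeR adjusted p = 0.0108). Among the 3 retinoic acid responsive genes Tgm2 was lower (log2 -0.99 ± 0.23, edgeR adjusted p = 0.0183) and 0 were higher. Among the 5 receptors Rarg was lower (log2 -0.77 ± 0.22, edgeR adjusted p = 0.046) and 0 were higher. Adh7 averaged 30.9 ± 4.33 CPM in HF-KO livers and 18.2 ± 2.71 CPM in HF-C livers (log2 0.80 ± 0.13, edgeR adjusted p = 0.00352). Adh4, another alcohol dehydrogenase active on retinol, averaged 156.5 ± 39.8 CPM in HF-KO livers and 84.8 ± 13.2 CPM in HF-C livers (log2 0.92 ± 0.17, edgeR adjusted p = 0.00724).

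LF-KO against LF-C asks what the labelled knockout changed on the low fat diet. Of the 9 genes 0 passed edgeR's test, 0 had an unadjusted p under 0.05 (4.24% of all genes did), and DESeq2 and limma-voom called 0. The groups overlapped for all 9, and 3.13% of all genes had no overlap. Across all 13056 genes tested 0.0% were called. The lowest adjusted p among the 9 was 0.704, for Dhrs3 (log2 -0.74 ± 0.36), Aldh1a1 (0.47 ± 0.22) and Aldh1a7 (0.52 ± 0.24). Dhrs3 had 157, 143, 172 and 142 CPM in LF-KO livers, against 198, 492, 208 and 135 CPM in LF-C livers, and its log2 fold change was -0.23 without LF-C-2. Rdh11 averaged 53.7 ± 21.9 CPM in LF-KO livers and 44.3 ± 11.1 CPM in LF-C livers (log2 0.28 ± 0.30, edgeR adjusted p = 0.746). Cyp26a1 had 7.73, 14.8, 7.92 and 2.85 CPM in LF-KO livers, against 10.7, 8.54, 11 and 7.72 CPM in LF-C livers (log2 -0.18 ± 0.41, edgeR adjusted p = 0.87). The other members were Rbp4 at -0.30 ± 0.29, Retsat at 0.08 ± 0.27, Rdh10 at 0.30 ± 0.27 and Rarb at -0.05 ± 0.34 on the log2 scale (edgeR adjusted p 0.715 to 0.961). Without LF-C-2, Rbp4 was at -0.04, Retsat at 0.19, Rdh10 at 0.1 and Rarb at -0.1. Of the pathway list 0 of 42 tested genes were called.

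The difference of the labelled knockout's effect between the diets was tested in 1 fit of all 19 libraries. It passed for 0 of the 9 genes by edgeR, DESeq2 and limma-voom, and for 0.202% of all genes by edgeR. At an unadjusted p under 0.05 there were 2, where 12.9% of all genes passed. Cyp26a1 had a difference of 1.40 ± 0.54 on the log2 scale (edgeR adjusted p = 0.314) and Dhrs3 of 0.77 ± 0.36 (edgeR adjusted p = 0.376). With 1 library left out, the difference ranged from 1.01 to 1.82 for Cyp26a1 and from 0.29 to 0.96 for Dhrs3. For Rdh11 it was 0.36 ± 0.31 (edgeR adjusted p = 0.656), so its change on the HF diet was not shown to differ from that on the LF diet. Rbp4 had a difference of 0.55 ± 0.30 (edgeR adjusted p = 0.452), and the other 5 genes lay between -0.41 (Aldh1a7) and 0.16 (Retsat).

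**Figure D4:**
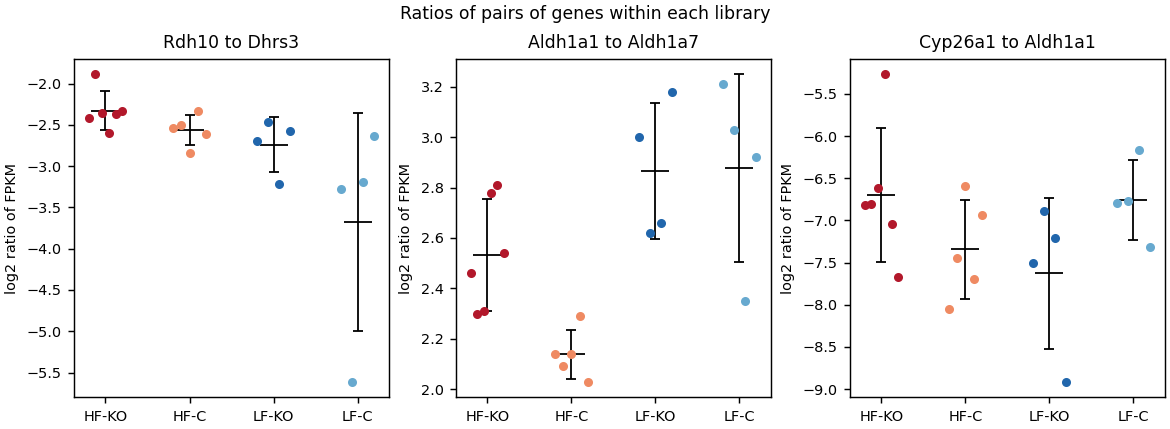
log2 ratio of the FPKM of pairs of genes (y axis) in each liver, by group (x axis), with the mean ± SD. The Aldh1a1 to Aldh1a7 ratio is 2.03 to 2.29 in HF-C livers and 2.30 to 2.81 in HF-KO livers.

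Ratios of genes within a library do not depend on the scaling between libraries and are given as a description. They are not free of the correlation with gene length, where a pair differs in length, as Rdh10 (3587 bases) and Dhrs3 (2337) do. The log2 ratio of Aldh1a1 to Aldh1a7 in FPKM (counts relative to gene length and library total) was 2.30 to 2.81 in HF-KO livers, against 2.03 to 2.29 in HF-C livers, and 2.62 to 3.18 in LF-KO livers, against 2.35 to 3.21 in LF-C livers. The HF-C livers were thus the lowest group, just below the HF-KO livers. Rdh10 to Dhrs3, the retinol dehydrogenase over the retinal reductase, averaged -2.33 ± 0.24 in HF-KO, -2.56 ± 0.19 in HF-C, -2.74 ± 0.33 in LF-KO and -3.68 ± 1.32 in LF-C livers (SD), with LF-C-2 lowest at -5.61. Cyp26a1 to Aldh1a1, a retinoic acid hydroxylase over a retinal dehydrogenase, averaged -6.70 ± 0.79 in HF-KO, -7.34 ± 0.59 in HF-C, -7.63 ± 0.89 in LF-KO and -6.76 ± 0.47 in LF-C livers, and the groups overlapped.

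For each gene called in a comparison, the most similar profiles were ranked among 10021 genes by the root mean square (RMS) difference of centred log2 CPM over the 19 libraries. All points share libraries, depth and scaling. LF-C-2 was included, where Dhrs3 had 492 CPM against at most 208 CPM elsewhere. The ranking was not repeated without LF-C-2. Closest to Rdh11 were Nsdhl (RMS 0.233), Cyp51 (0.274) and Acss2 (0.275), where the spread of Rdh11 itself was 0.488. Nsdhl and Cyp51 encode enzymes of cholesterol synthesis and Acss2 makes acetyl-CoA from acetate. Rbp4 was closest to Iah1 (0.117), the retinol dehydrogenase gene Rdh7 (0.124) and the kininogen gene Kng1 (0.127), against a spread of 0.452. Nearest to Retsat were Dpys, Ces1f and Amacr (0.203 to 0.208, spread 0.382), and nearest to Dhrs3 were Anp32a, Cbs and Aldh16a1 (0.147 to 0.176, spread 0.524). Aldh1a7 was closest to Ndfip2, Frk and Kpna4 (0.17 to 0.181, spread 0.41). For Cyp26a1 the nearest were Ppp1r3c, Cenpl and Mras (0.562 to 0.602), not far under its own spread of 0.722.

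**Figure D5:**
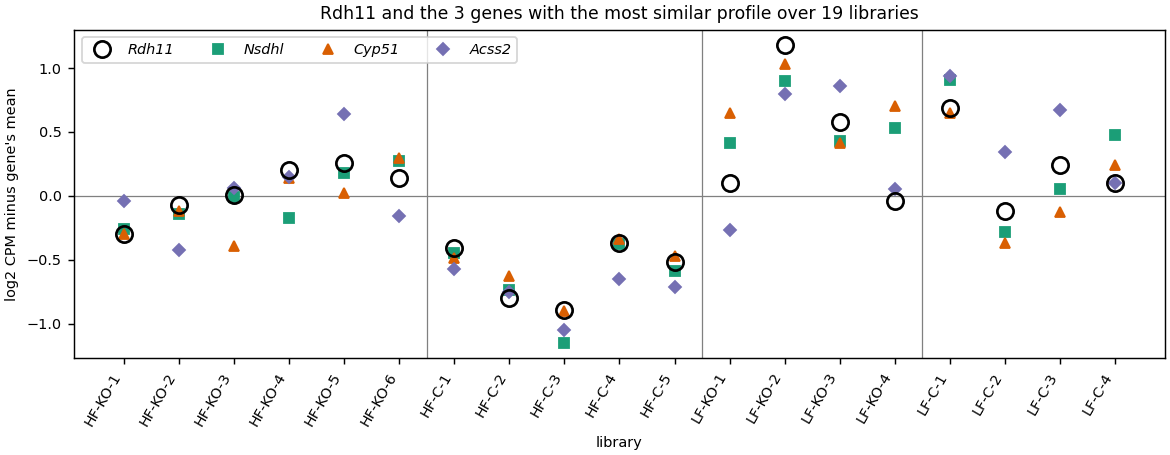
log2 CPM minus the gene's own mean (y axis) of Rdh11 and its 3 nearest profiles in each library (x axis), with lines between groups. Rdh11 is below its mean in all 5 HF-C livers and highest in LF-KO-2.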

How the data were processed

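RNA from whole livers of 19 mice was sequenced as read pairs, 1 library per mouse. Per the labels' protocols reads were mapped with STAR 2.5, and HTSeq 0.6.1 and DESeq2 are named, with no role, in the submitters' processing notes. Build and annotation: not given in the sources used here. The authors deposited 4 tables, which hold whole-number read counts per gene, per the file headers. The deposited FPKM values were recomputed from the counts, listed lengths and library totals with a largest relative deviation of 4.98e-12. The authors' deposited log2 fold changes and p-values were used only where the authors' table is named. The tables were joined into 24192 genes, and 0 columns lacked a sample.

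Counts were fitted in R 4.3.3 with edgeR 4.0.16 (TMM factors, filterByExpr, quasi-likelihood test), each pair of groups on its own libraries and the difference between diets on all 19. P-values were adjusted by Benjamini-Hochberg over all genes tested, with calls made below 0.05. The fit was checked on simulated data. SEs were derived as the size of the log2 fold change over the root of F. DESeq2 1.42.0 and limma 3.58.1 (voom) were alternatives, besides other scalings, no filter, all libraries in 1 fit, a replicate block and leaving out each library. No unique molecular identifiers are named, so counting error is a lower limit.

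The members and lists were chosen with earlier results of these data known. Named are all 9 genes, Pparg, up to 4 called genes of the pathway list per comparison by smallest p, and, for each member called in a pairwise comparison, the 3 nearest profiles among genes of at least 5 CPM (prior count 2). Genes named as strand partners or in figures come in addition. Promoters are RefSeq sequences. Same-numbered libraries did not all correlate above 0.1 in any comparison, so numbers were not taken as pairs.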

Additional observations from a re-analysis of the deposited data

Results flagged for a closer look

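Single livers lay apart from their group in 5 of the 40 sets of 4 to 6 livers examined (9 genes and Pparg in 4 groups), judged by the gap to the next liver relative to the range. Chance alone marks about 5% of such sets. Rbp4 was 3993 CPM in HF-KO-2, above the other HF-KO livers (2464 to 2848 CPM). HF-KO-2 also had the lowest correlation with gene length among the HF-KO libraries (-0.427). Cyp26a1 was 33.3 CPM in HF-KO-4, where the next HF-KO liver had 15.1 CPM. Retsat was 255 CPM in HF-C-5, below the other HF-C livers (367 to 411 CPM). Rarb was 4.05 CPM in HF-C-3, where the other HF-C livers had 6.79 to 7.73 CPM, and 7.83 CPM in LF-KO-2, above the other LF-KO livers (2.85 to 3.51 CPM).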

How the results depend on the processing

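Of the 9 genes, 5 were called in HF-C vs LF-C. With library size alone 2 were called, with limma-voom 4, with no filter 4, with DESeq2, median-of-ratios factors or all 19 libraries in 1 fit 5, and with 1 library left out 2 to 5. In HF-KO vs HF-C the 2 calls became 4 with DESeq2, 1 with library size alone, 0 in 1 fit of all 19 libraries, and 1 to 2 with 1 library left out. In HF-KO vs LF-KO 0 to 2 were called with 1 library left out. The calls over all genes moved too. In HF-C vs LF-C they were 2458, against 3056 with library size alone, 2343 with limma-voom, 2256 with no filter and 3870 with DESeq2. In HF-KO vs HF-C they were 1360, against 2347 with DESeq2, 1361 with library size alone and 531 in 1 fit of all 19 libraries. With 1 library left out they ranged from 1451 to 3478 in HF-C vs LF-C and 704 to 1813 in HF-KO vs HF-C. In HF-KO vs LF-KO that range was 0 to 1214. The cause was not tested. With the replicate number as a block, 0 of the 9 were called in HF-C vs LF-C and 2 in HF-KO vs HF-C. Those fits used only libraries whose number occurs in both groups, and called 666 and 781 genes over all genes. The replicate numbers are not taken as pairs.

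Signs turned for uncalled genes. Aldh1a1 in HF-C vs LF-C was -0.06 with median-of-ratios factors and with DESeq2, and in HF-KO vs LF-KO it was -0.09 with the replicate block. With library size alone, HF-KO vs HF-C gave -0.07 for Dhrs3, -0.01 for Aldh1a7 and -0.09 for Rarb, LF-KO vs LF-C gave 0.08 for Rarb, and the difference between diets gave -0.11 for Retsat, -0.22 for Aldh1a1 and -0.18 for Rarb. That difference for Aldh1a1 was -0.01 with no filter and -0.21 with the replicate block. With 1 library left out, HF-C vs LF-C ranged from -0.17 to 0.19 for Rdh10 and from -0.08 to 0.10 for Aldh1a1, and HF-KO vs LF-KO from -0.08 to 0.07 and from -0.06 to 0.14 for the same genes. HF-KO vs HF-C ranged from -0.01 to 0.12 for Dhrs3 and from -0.11 to 0.12 for Rarb. LF-KO vs LF-C ranged from -0.07 to 0.26 for Retsat, -0.02 to 0.46 for Rdh11, -0.62 to 0.11 for Cyp26a1 and -0.48 to 0.11 for Rarb. The difference between diets ranged from -0.03 to 0.30 for Retsat, -0.17 to 0.19 for Rdh10, -0.09 to 0.12 for Aldh1a1 and -0.12 to 0.48 for Rarb. For Pparg, a pseudocount of 0.5 (1.36 on the HF diet, 1.02 on the LF diet) and leaving out each library (1.20 to 1.43 and 0.68 to 1.26) were added after seeing the data. Counts of 38 to 572 fragments limit Cyp26a1 and Rarb.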
